A study of Homo sapiens with 9 samples.

Results

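The genes that carry glucose into the cell and turn it into pyruvate and lactate were followed in 786-0 cells whose HIF2α was either blocked with the drug PT2385 or knocked out. The set holds 40 genes of the 58735 in the count table. The genes were listed by function, with earlier results of these data known, and cover glucose transporters, the enzymes of each glycolytic step with their isozymes, the lactate dehydrogenases and monocarboxylate transporters, and the genes that control whether pyruvate enters mitochondria.

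Glycolysis splits glucose into pyruvate, which is either reduced to lactate and exported or carried into mitochondria and oxidised by pyruvate dehydrogenase. Hypoxia-inducible factors (HIFs) are dimers of an α subunit and HIF1β that bind DNA and switch on genes of this pathway when oxygen is low. Clear cell renal cell carcinoma, a kidney tumour with abundant glycogen and lipid, commonly loses VHL, the protein that marks HIFα subunits for destruction, so that the factors stay active in normal oxygen.

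RNAseq counts were available for 9 libraries of 786-0, an established clear cell renal cell carcinoma line. VHL and HIF1α are both mutated in it, and HIF2α is made without hypoxia. They comprised 3 replicates each of wild-type cells (WT), WT cells given 10 μM PT2385, a small molecule that keeps HIF2α from pairing with HIF1β, and HIF2α knockout cells (KO). All were cultured for 48 h in 21% O2, in DMEM with 5 mM glucose and 10% FBS. Whether WT cells received a vehicle, how the KO was made, whether it is a clone, and whether replicates were separate cultures are not given in the sources used here, so the p-values measure the spread between these samples, which may be technical. Clonal differences and loss of HIF2α cannot be told apart in the KO.

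Total counts ran from 11881000 to 14730081 per library, and the 40 genes took 1.34 to 1.37% of them in WT, 1.15 to 1.22% with PT2385 and 1.14 to 1.22% in KO. Levels are given as CPM (counts as a share of the TMM-scaled library size, in parts per 1000000). Replicates of a group differed by more than counting error. A list of 10 kidney epithelial and clear cell carcinoma markers summed to 6031 to 6772 CPM in every library, with PAX8 at 563 to 679 CPM, although LRP2 and CA9 were at 0 in all 9. Within that list PAX2 was lower in KO than in WT (log2 fold change -1.30, adjusted p = 2.84e-05), KRT8 and KRT18 were higher (0.54 and 0.85, adjusted p = 1.01e-04 and 4.66e-05) and CDH2 was lower (-0.22, adjusted p = 0.0287). With PT2385 PAX2 was lower (-0.44, adjusted p = 0.0325) and KRT8 and KRT18 were higher (0.26 and 0.47, adjusted p = 0.0423 and 0.0158), and the part of these differences in the results was not tested. The endothelial, leukocyte, erythroid and hepatocyte markers each summed to at most 0.167 CPM in any library.

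The KO name comes from the sample labels, and the study's methods describe silencing of HIF2α by siRNA but no knockout line. Protein was not measured here, but the transcript of EPAS1, the gene of HIF2α, shows how much RNA was left in KO. It read 270.3, 264 and 233 CPM in WT, 248, 248 and 219 CPM with PT2385, and 20.2, 24.9 and 21.1 CPM in KO. The KO libraries therefore held 8.63% of the WT level (log2 fold change -3.52, standard error 0.0963, adjusted p = 2.15e-09), while PT2385 left the transcript without a called difference (-0.11, adjusted p = 0.459). HIF1A, which is mutated in this line, read 25.3, 21.6 and 16.6 CPM in WT, 31.9, 30.3 and 22.3 CPM with PT2385, and 33.7, 44.1 and 31.2 CPM in KO, where it was higher than in WT (0.79, adjusted p = 0.00364).

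PT2385 lowered a scattered set of the pathway and not its whole length. The glucose transporter SLC2A1 fell to 20.3% of its WT mean, the neuronal enolase ENO2 to 46.5%, lactate dehydrogenase A (LDHA) to 59.6% and pyruvate carboxylase (PC) to 60.5%. GAPDH, PGK1, PGAM1, TPI1 and ENO1, all abundant glycolytic enzymes, were not called. Pyruvate kinase (PKM), also abundant, was lower at 83.5% of its WT mean, a call that some alternative analyses lost. Of the 38 genes that passed the filter on low counts, 11 were lower and 1, PFKM, was higher (edgeR quasi-likelihood test, adjusted p under 0.05). That is 31.6% of those tested, against a background of 7.7% of all 15089 genes tested. In the lower direction the background was 4.62%, and in the higher direction 3.08%. The median log2 fold change was -0.10 for the set and 0.00 for all genes, and 18 members had no overlap between the 3 WT and 3 PT2385 libraries, a state shared by 26.1% of all genes. Same-numbered WT and PT2385 replicates deviated together, and a fit with replicate as a blocking factor called 2305 genes and 14 members in place of 1162 and 12. In bulk RNA, fewer cells expressing a gene and less RNA per cell cannot be told apart.

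In KO the same pathway held both falls and rises. ENO2 fell to 18.4% of its WT mean, SLC2A1 to 28.5%, PC to 44.8% and PFKFB3, which makes the activator of phosphofructokinase, to 57.0%, while PDP1, the phosphatase that switches pyruvate dehydrogenase on, reached 207% of WT. Of the 38 tested, 10 were lower (26.3%) and 6 higher (15.8%), which is 42.1% called. The background was 30.1% of 15192 genes (15.4% lower and 14.7% higher), so the share of higher calls was near that of all genes. The median log2 fold change was -0.05 for the set and 0.00 for all genes. No overlap between groups was seen for 23 members, and for 43.8% of all genes. Without KO replicate 3 the number of members called was 22, and 5094 of the 15556 genes tested in that fit were called.

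The WT libraries serve as controls in both comparisons, so KO and PT2385 were also set against each other directly. In that comparison 7 members were lower in KO, 6 were higher and 25 were not called. The share called was 34.2%, beside a background of 18.8% of 15402 genes (10.3% lower and 8.47% higher), and 18 members had no overlap, as had 35.4% of all genes. The median log2 fold change was 0.04 for the set and 0.00 for all genes. Only ENO2, PDP1, PFKFB3 and SLC2A1 held their call under all 16 alternative analyses of this comparison, and with DESeq2 PC and GPI were no longer called (adjusted p = 0.0525 and 0.0549).

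**Figure D1:**
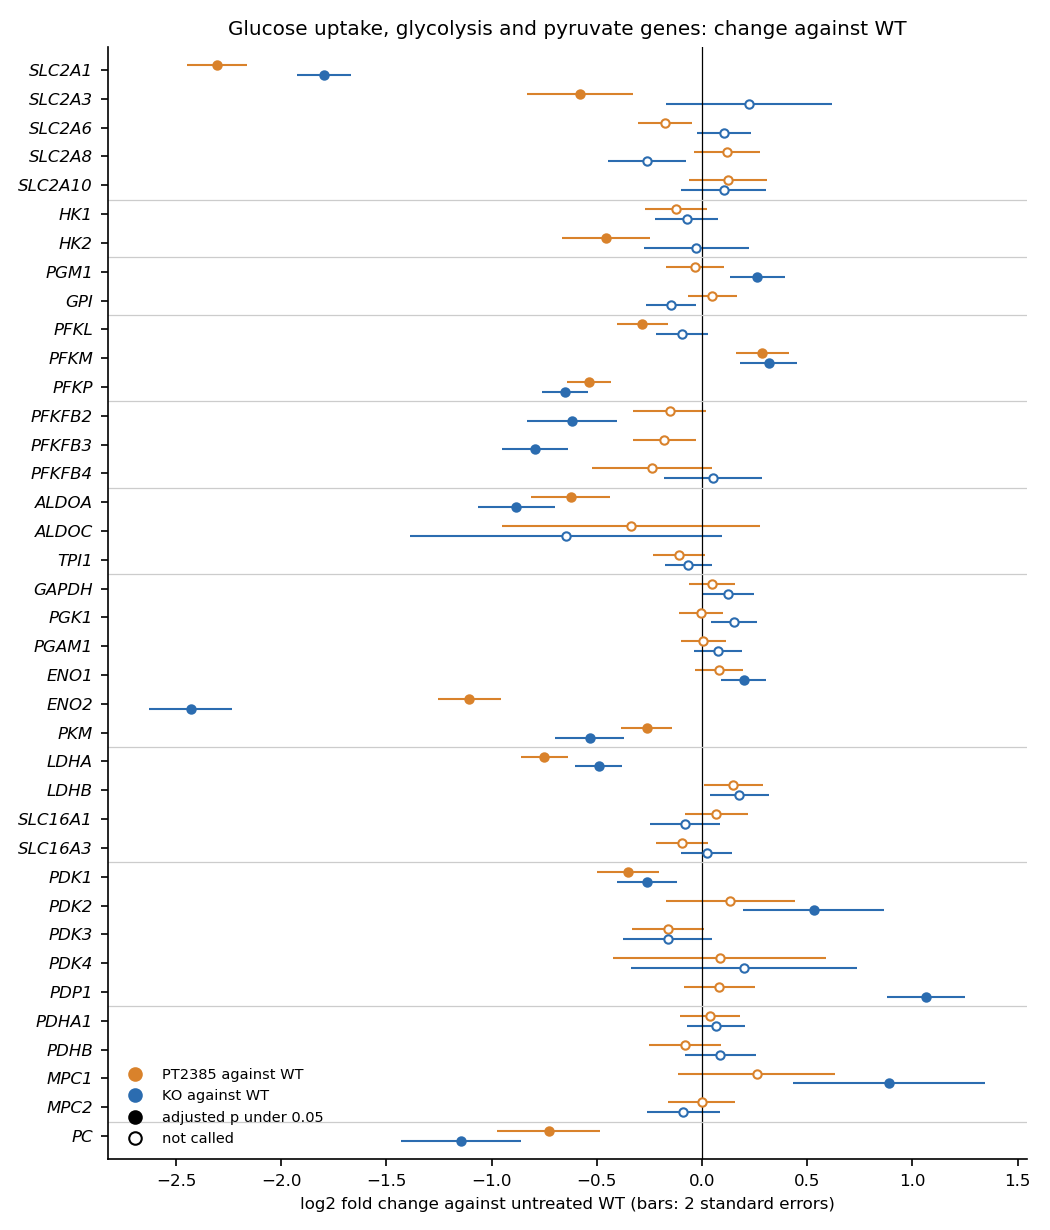
Log2 fold change of the 38 tested genes against WT, in pathway order from glucose transport at the top to PC at the bottom, for PT2385 (orange) and KO (blue). Bars span 2 standard errors on each side and filled points have an adjusted p under 0.05. SLC2A1 and ENO2 lie farthest to the left, PDP1 lies farthest to the right in KO, and the rows from GAPDH to ENO1 lie between -0.01 and 0.20.

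Promoter sequences of 4 genes are shown to set 3 that fell beside 1 that was not called: SLC2A1 and ENO2 had the largest falls, LDHA fell and holds the HIF core motif in several copies, and PGK1 was not called in any comparison while also holding it. The core of the motif that HIF dimers bind is ACGTG, with GCGTG as its other common form. Each stretch is the 250 bases before the RefSeq start (GRCh38.p14), read 5′ to 3′ on the gene's strand, with matches to either core on either strand in capitals. The positions are chr1:42958869-42959118, minus strand for SLC2A1, chr12:6914330-6914579, plus strand for ENO2, chr11:18394313-18394562, plus strand for LDHA and chrX:78103998-78104247, plus strand for PGK1.
SLC2A1: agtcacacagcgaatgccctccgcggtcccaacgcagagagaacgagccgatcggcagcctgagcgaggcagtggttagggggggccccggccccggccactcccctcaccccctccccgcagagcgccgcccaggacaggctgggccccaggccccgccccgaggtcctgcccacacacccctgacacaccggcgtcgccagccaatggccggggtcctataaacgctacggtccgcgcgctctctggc
ENO2: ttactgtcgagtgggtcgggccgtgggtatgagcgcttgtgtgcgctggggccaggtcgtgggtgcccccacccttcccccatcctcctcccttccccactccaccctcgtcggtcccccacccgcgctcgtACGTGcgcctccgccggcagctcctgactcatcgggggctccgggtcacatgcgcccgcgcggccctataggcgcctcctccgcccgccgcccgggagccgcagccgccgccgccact
LDHA: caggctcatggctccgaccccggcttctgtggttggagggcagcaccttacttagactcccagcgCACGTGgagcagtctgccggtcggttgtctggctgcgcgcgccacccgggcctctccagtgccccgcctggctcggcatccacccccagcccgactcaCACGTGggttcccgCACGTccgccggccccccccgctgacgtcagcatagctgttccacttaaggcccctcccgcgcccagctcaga
PGK1: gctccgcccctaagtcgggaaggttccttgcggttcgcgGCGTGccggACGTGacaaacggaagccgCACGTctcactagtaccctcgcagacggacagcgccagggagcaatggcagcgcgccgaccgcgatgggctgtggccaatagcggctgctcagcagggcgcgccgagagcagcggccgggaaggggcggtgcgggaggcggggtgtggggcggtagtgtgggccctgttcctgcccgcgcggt
LDHA held 5 matches to ACGTG, because its 2 CACGTG palindromes each count on both strands and another match lies 73 bases before the start. ENO2 held 1 match, 118 bases before the start. PGK1 held 2 ACGTG and 1 GCGTG, and SLC2A1, the member with the largest fall with PT2385, held neither core in this window. Over all 35116 listed promoters of the same length, 18.5% held ACGTG and 32.2% held GCGTG. Of the 36 members with a promoter sequence, each judged on its first listed start alone, 12 held ACGTG. They were 5 of the 10 members lower with PT2385 that had a sequence (HK2, ALDOA, ENO2, LDHA and PC) and 7 of the 23 that were not called (SLC2A10, GPI, ALDOC, GAPDH, PGK1, PDK3 and PDHB). Counting either core, 6 of the 10 lower members (60%) and 13 of the 23 not called (56.5%) held a match. Either core was held by 43.2% of all promoters. SLC2A3, PFKFB2, SLC16A1 and PDP1 were not matched to a sequence. A match describes letters in a window and is not a measured binding site.

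The glucose carrier with the most transcripts per kb was SLC2A1 (GLUT1, ENSG00000117394, chromosome 1, 42925353 to 42958893 of GRCh38). Its level was 863, 925 and 941 CPM in WT, 169, 183 and 201 CPM with PT2385, and 276, 245 and 257 CPM in KO. The groups did not overlap, and every KO library lay between the PT2385 and the WT libraries. The log2 fold change was -2.31 with PT2385 (standard error 0.0708, adjusted p = 1.35e-09) and -1.80 in KO (0.0639, adjusted p = 7.85e-09). KO cells held more SLC2A1 transcript than PT2385-treated cells (log2 fold change 0.49, standard error 0.0803, adjusted p = 0.00161).

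SLC2A3 (GLUT3, ENSG00000059804, chromosome 12, 7919230 to 8019007), a carrier with high affinity for glucose, was present at 25.4, 24.0 and 20.6 CPM in WT, 18.4, 14.3 and 14.4 CPM with PT2385, and 33.9, 29.7 and 17.5 CPM in KO. It was lower with PT2385 (log2 fold change -0.58, standard error 0.125, adjusted p = 0.0144), whereas in KO it overlapped WT (0.22, adjusted p = 0.442). The direct comparison put KO above PT2385 (0.78, adjusted p = 0.0258). The PT2385 call was lost without WT replicate 1 (adjusted p = 0.0715), WT replicate 2 (0.0789) or PT2385 replicate 2 (0.0812), and with all 9 libraries in 1 model (0.123). KO replicate 3 stood apart from the other KO libraries, and without it SLC2A3 was higher in KO than in WT (log2 fold change 0.46, adjusted p = 0.00535). The KO against PT2385 call was lost without PT2385 replicate 2 (0.102), PT2385 replicate 3 (0.0722), KO replicate 1 (0.117) or KO replicate 2 (0.0746).

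The remaining carriers moved little against WT. SLC2A6 (GLUT6), a lysosomal hexose transporter, averaged 90.7 CPM in WT, 80.4 with PT2385 and 96.7 in KO, and was called only between KO and PT2385 (log2 fold change 0.26, adjusted p = 0.0245). Blocked by replicate, its PT2385 difference of -0.18 was also called (adjusted p = 0.0408). The KO against PT2385 call was lost without PT2385 replicate 1 (0.0619), PT2385 replicate 2 (0.0589) or KO replicate 1 (0.111). SLC2A8 (GLUT8), an intracellular transporter, averaged 37.5, 40.7 and 31.0 CPM in WT, PT2385 and KO, and was lower in KO than with PT2385 (-0.40, adjusted p = 0.0196). That call was lost without PT2385 replicate 2 (0.0581), PT2385 replicate 3 (0.0702), KO replicate 1 (0.0618) or KO replicate 2 (0.0672). Against WT all KO libraries of SLC2A8 lay lower, but the difference missed the threshold (-0.26, adjusted p = 0.0540). It was called without KO replicate 3 (adjusted p = 0.0125), with library-size scaling (0.0446) or with no filter on low counts (0.0460). Blocking by replicate (0.0368) or all 9 libraries in 1 model (0.0382) called it too. SLC2A10 (GLUT10) was not called in any comparison, and SLC2A12 (GLUT12) had 0 to 8 counts per library and was not tested.

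Set beside each other per kb of exon, the 6 carriers changed in composition. SLC2A1 supplied 75.8% ± 1.25 (SD, n = 3) of their summed CPM per kb in WT, 40.2% ± 2.07 with PT2385 and 46.6% ± 0.290 in KO. The share of SLC2A6 was 14.2% ± 0.596 in WT, 32.9% ± 1.53 with PT2385 and 32.6% ± 0.872 in KO, although its own level was not called lower or higher than WT. The summed level of the carriers was 38.1% of WT with PT2385 and 46.3% in KO. With the longest transcript as the length, SLC2A1 made up 82.8, 50.6 and 57.9% of the sum in WT, PT2385 and KO and SLC2A6 8.19, 21.9 and 21.4%.

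**Figure D2:**
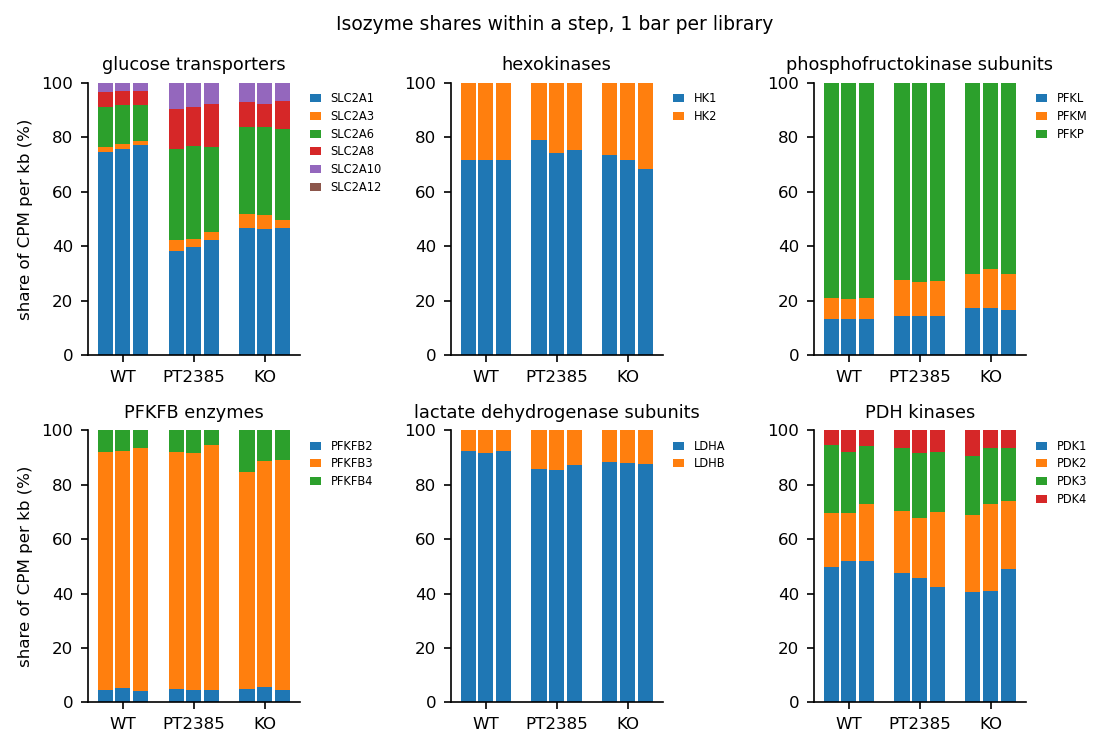
Share of each isozyme in the summed CPM per kb of exon of the members at its step (percent), with 1 bar per library and 3 bars per group. Genes outside the set, such as HKDC1 (103 CPM in WT), are not in the sums. SLC2A1 shrinks from 75.8% of the glucose transporters in WT to 40.2% with PT2385 and 46.6% in KO, PFKP from 79.0% of the phosphofructokinase subunits to 72.8 and 69.6%, and LDHA from 92.1% of the lactate dehydrogenase subunits to 86.1 and 88.0%.

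Hexokinases phosphorylate glucose and so trap it in the cell. HK1, the broadly expressed isozyme, averaged 248 CPM in WT, 228 with PT2385 and 233 in KO and was not called in any comparison. HK2 (ENSG00000159399, chromosome 2, 74834127 to 74893359), the inducible isozyme, read 81.0, 88.9 and 83.6 CPM in WT, 50.2, 63.5 and 71.0 CPM with PT2385, and 70.2, 73.0 and 103 CPM in KO. All PT2385 libraries lay under all WT libraries, while the KO libraries lay on both sides of them. HK2 was lower with PT2385 (log2 fold change -0.46, standard error 0.105, adjusted p = 0.0204). This call was lost without WT replicate 1 (0.0519), WT replicate 2 (0.122), WT replicate 3 (0.0652) or PT2385 replicate 2 (0.0680), and with all 9 libraries in 1 model (0.0817). In KO it was not called (-0.03, adjusted p = 0.899), but without KO replicate 3 it was (-0.22, adjusted p = 0.0258). KO and PT2385 differed by 0.41, which was not called (adjusted p = 0.0956) except with DESeq2 (0.0349), blocking by replicate (0.00292) or no filter on low counts (1.89e-04).

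The enzymes that exchange hexose phosphates differed little. Phosphoglucomutase PGM1, which links glucose-6-phosphate to glycogen, averaged 104 CPM in WT, 102 with PT2385 and 124 in KO, and was higher in KO than in WT (log2 fold change 0.26, adjusted p = 0.0114) and than with PT2385 (0.28, adjusted p = 0.0275). The former call was lost without WT replicate 3 (0.0555), and the latter without PT2385 replicate 1 (0.0612), PT2385 replicate 2 (0.148), KO replicate 1 (0.0934) or KO replicate 2 (0.0965). The isomerase GPI averaged 330.4, 343 and 296 CPM in WT, PT2385 and KO. It was lower in KO than with PT2385 (-0.21, adjusted p = 0.0321), a call that was lost on leaving out any of the 6 libraries in turn (adjusted p from 0.0512 to 0.173).

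Phosphofructokinase, the committed step of glycolysis, is built from 3 kinds of subunit, and they moved in opposite directions. The platelet-type subunit PFKP (ENSG00000067057, chromosome 10, 3066333 to 3137718) was the most abundant, at 678, 711 and 688 CPM in WT, 463, 482 and 490.3 CPM with PT2385, and 452, 433 and 427 CPM in KO. It fell with PT2385 (log2 fold change -0.54, standard error 0.0525, adjusted p = 3.68e-05) and in KO (-0.65, standard error 0.0546, adjusted p = 6.66e-06). All WT libraries lay far above the others, and KO and PT2385 were not called different (-0.13, 2-standard-error interval -0.25 to -0.01, adjusted p = 0.169).

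The muscle-type subunit PFKM (ENSG00000152556, chromosome 12, 48105139 to 48146404) was the member called higher with PT2385. It read 63.4, 62.6 and 64.6 CPM in WT, 77.3, 75.8 and 80.0 CPM with PT2385, and 76.9, 83.8 and 74.5 CPM in KO, where it was also higher (log2 fold change 0.32, adjusted p = 0.00453). The PT2385 difference of 0.29 (standard error 0.0629, adjusted p = 0.0157) was lost without WT replicate 1 (0.0622), WT replicate 2 (0.0884) or PT2385 replicate 2 (0.0632). The liver-type subunit PFKL (ENSG00000141959, chromosome 21, 44300051 to 44327376) read 129, 136 and 132 CPM in WT, 107, 108 and 112 CPM with PT2385, and 127, 125 and 116 CPM in KO. It was lower with PT2385 (-0.28, standard error 0.0595, adjusted p = 0.0125), except without WT replicate 2 (0.0944) or PT2385 replicate 2 (0.0761), and was not called in KO (-0.10, adjusted p = 0.273). By share per kb, PFKM rose from 7.79% ± 0.253 of the subunits in WT to 12.7% ± 0.306 with PT2385 and 13.4% ± 0.752 in KO, whereas the summed subunit level was 75.0% and 71.7% of WT.

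The PFKFB enzymes make and remove fructose-2,6-bisphosphate, the strongest activator of phosphofructokinase, and here KO stood apart from PT2385. PFKFB3 (ENSG00000170525, chromosome 10, 6144934 to 6254644) read 260.1, 243 and 290.1 CPM in WT, 217, 237 and 248 CPM with PT2385, and 139, 153 and 161 CPM in KO. It was lower in KO than in WT (log2 fold change -0.80, standard error 0.0784, adjusted p = 2.26e-05) and than with PT2385 (-0.64, adjusted p = 3.06e-04). With PT2385 the groups overlapped and the difference was not called (-0.18, adjusted p = 0.195), though it was when blocked by replicate (adjusted p = 0.0295). PFKFB2 (ENSG00000123836, chromosome 1, 207034366 to 207081024) read 23.3, 23.9 and 22.7 CPM in WT, 20.7, 20.9 and 21.3 CPM with PT2385, and 14.0, 16.9 and 14.1 CPM in KO. Its fall in KO (-0.62, standard error 0.107, adjusted p = 0.00127) was also larger than that with PT2385 (KO against PT2385 -0.48, adjusted p = 0.0110), a difference lost without PT2385 replicate 2 (0.0518) or KO replicate 1 (0.0565). PFKFB4 was not called in any comparison. The summed PFKFB level per kb was 88.4% of WT with PT2385 and 60.8% in KO.

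**Figure D3:**
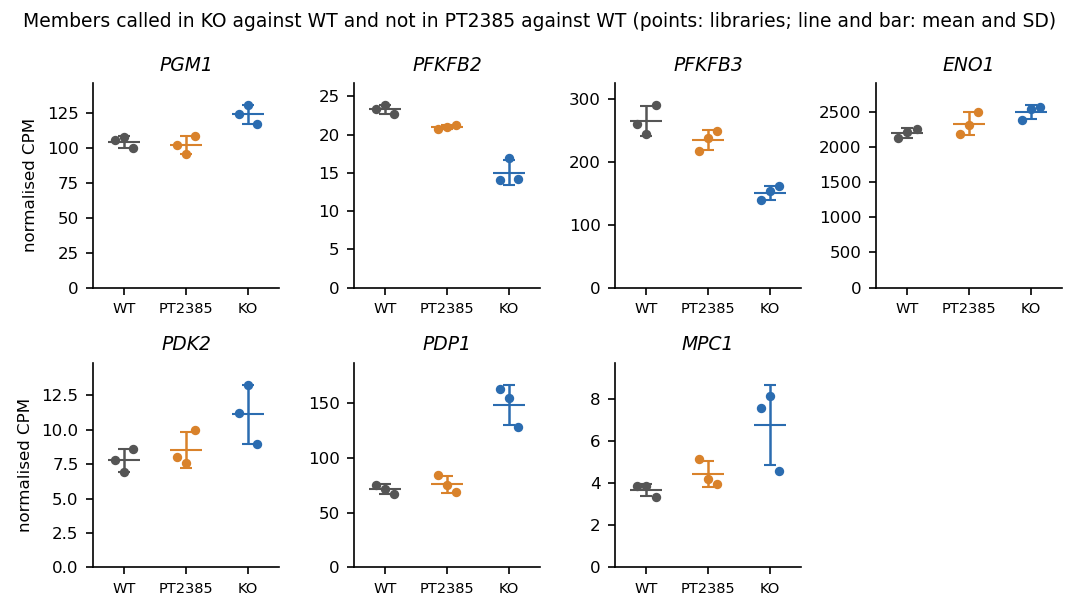
CPM of the 7 members called in KO against WT and not with PT2385, with 1 point per library and the mean and SD of each group. PFKFB3 and PFKFB2 sit lowest in KO, and PDP1 sits at 128 to 163 CPM in KO above 67.0 to 84.2 CPM in the other groups, while KO replicate 3 of MPC1 lies among the PT2385 libraries.

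Aldolase splits fructose-1,6-bisphosphate. ALDOA (ENSG00000149925, chromosome 16, 30064164 to 30070457) read 29.7, 32.2 and 30.9 CPM in WT, 21.7, 18.2 and 20.4 CPM with PT2385, and 17.4, 15.7 and 16.8 CPM in KO. It was lower with PT2385 (log2 fold change -0.63, standard error 0.0935, adjusted p = 0.00117) and in KO (-0.88, standard error 0.0909, adjusted p = 3.18e-05). These counts are uncertain, because 42.8% of the exon bases of ALDOA are shared on the same strand with ENSG00000285043, and how reads in both were counted is not given in the sources used here. ALDOC, the brain isozyme, stayed at 0.756 to 2.51 CPM, too low for a narrow estimate (2-standard-error interval of its log2 fold change in KO from -1.39 to 0.09). Triosephosphate isomerase TPI1 was not called, with log2 fold changes of -0.11 with PT2385 and -0.07 in KO.

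The enzymes that follow carry most of the transcripts of the pathway. Per kb of exon in WT, GAPDH was highest at 841 CPM, then ENO1 at 421, PKM at 302, LDHA at 207, TPI1 at 189.9, PGAM1 at 189.6, and SLC2A1 at 138. GAPDH, which makes NADH, PGK1, which makes ATP, and the mutase PGAM1 were not called in any comparison. Their intervals with PT2385 were narrow: -0.06 to 0.16 for GAPDH, -0.11 to 0.10 for PGK1 and -0.10 to 0.11 for PGAM1. In KO the PGK1 libraries (396, 399 and 379 CPM) all lay above the WT libraries (355, 364 and 348 CPM), and the log2 fold change of 0.15 missed the threshold (adjusted p = 0.0599). Without KO replicate 3 both PGK1 (0.18, adjusted p = 0.0255) and GAPDH (0.16, adjusted p = 0.0411) were called higher in KO.

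**Figure D4:**
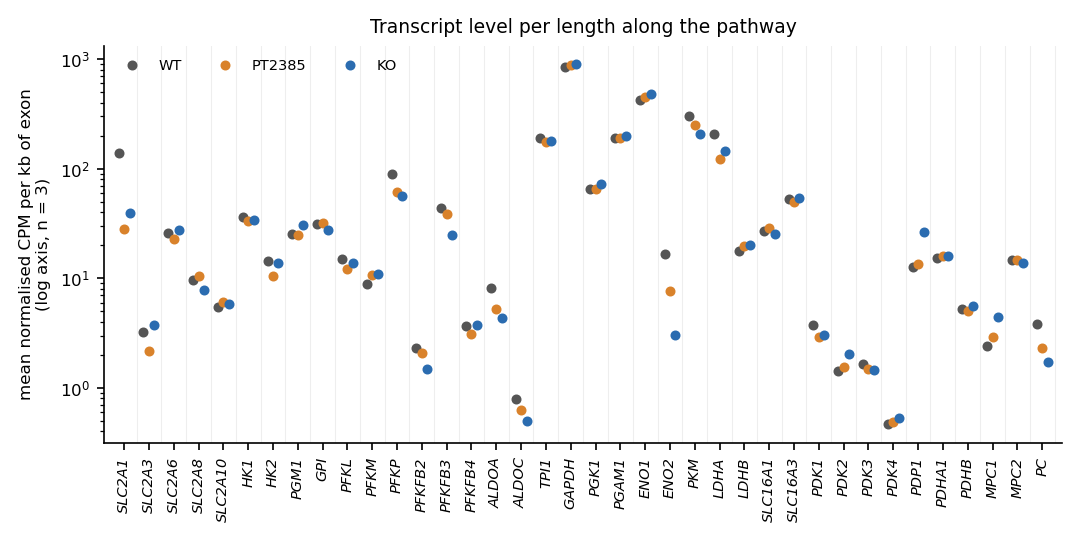
Mean CPM per kb of exon (log axis, n = 3) of the 38 tested genes in pathway order for WT, PT2385 and KO. GAPDH (841 in WT) and ENO1 (421) stand highest, whereas SLC2A1 drops from 138 to 27.9 with PT2385 and 39.2 in KO and ENO2 from 16.6 to 7.72 and 3.05.

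The 2 enolases parted. ENO1, the ubiquitous isozyme, averaged 2197 CPM in WT, 2329.7 with PT2385 and 2496 in KO and was higher in KO (log2 fold change 0.20, adjusted p = 0.0173), a call lost without WT replicate 1 (0.0816) or WT replicate 2 (0.0730). ENO2 (ENSG00000111674, chromosome 12, 6913745 to 6923698), the neuronal isozyme, read 67.6, 69.7 and 75.9 CPM in WT, 32.0, 34.7 and 32.4 CPM with PT2385, and 13.0, 14.6 and 11.5 CPM in KO. No groups overlapped, and the order was the same in every library: WT highest, PT2385 between, KO lowest. ENO2 fell with PT2385 (-1.11, standard error 0.0750, adjusted p = 1.48e-06) and in KO (-2.43, standard error 0.0979, adjusted p = 2.15e-08), and was lower in KO than with PT2385 (-1.34, standard error 0.111, adjusted p = 1.79e-05). Since ENO2 supplied only 3.79% ± 0.129 of the enolase transcripts per kb in WT, the summed enolase level was 104% of WT with PT2385 and 110.0% in KO.

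Pyruvate kinase makes pyruvate and ATP, and its isoforms PKM1 and PKM2 are not separated by counts per gene. PKM (ENSG00000067225, chromosome 15, 72199029 to 72231819) read 2679, 2735 and 2349.8 CPM in WT, 2146, 2213 and 2127 CPM with PT2385, and 1862, 1876 and 1572 CPM in KO, so that the groups formed a descending series without overlap. It was lower in KO than in WT (log2 fold change -0.54, standard error 0.0822, adjusted p = 5.65e-04) and than with PT2385 (-0.29, adjusted p = 0.0180), the latter except without PT2385 replicate 2 (0.107). The lower level with PT2385 (-0.26, standard error 0.0613, adjusted p = 0.0218) was not called without WT replicate 1 (0.105), WT replicate 2 (0.145) or PT2385 replicate 2 (0.0758), or with all 9 libraries in 1 model (0.0572).

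Lactate dehydrogenase turns pyruvate into lactate. LDHA (ENSG00000134333, chromosome 11, 18394560 to 18408425), the subunit that favours lactate, read 1229.8, 1227 and 1283 CPM in WT, 721, 714 and 796 CPM with PT2385, and 857, 923 and 857 CPM in KO. The groups did not overlap, with KO between PT2385 and WT as for SLC2A1. The log2 fold change was -0.75 with PT2385 (standard error 0.0566, adjusted p = 4.05e-06) and -0.49 in KO (0.0556, adjusted p = 6.53e-05). KO lay above PT2385 by 0.24 (adjusted p = 0.0285), but not without PT2385 replicate 1 (0.0847), PT2385 replicate 2 (0.158), KO replicate 1 (0.0700) or KO replicate 2 (0.0982). LDHB, the subunit that favours pyruvate, averaged 53.2, 59.2 and 59.6 CPM in WT, PT2385 and KO and was not called, and 33.4% of its exon bases are shared with another gene on the same strand. The monocarboxylate transporters that export lactate, SLC16A1 (MCT1) and SLC16A3 (MCT4), were not called either. SLC16A3, a gene known for induction by hypoxia, averaged 491 CPM in WT, 460.2 with PT2385 and 493 in KO, and its log2 fold change with PT2385 was -0.10 (2-standard-error interval -0.22 to 0.03). SLC16A1 averaged 172, 181 and 161 CPM, and without KO replicate 3 it was called lower in KO (-0.18, adjusted p = 0.0407).

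**Figure D5:**
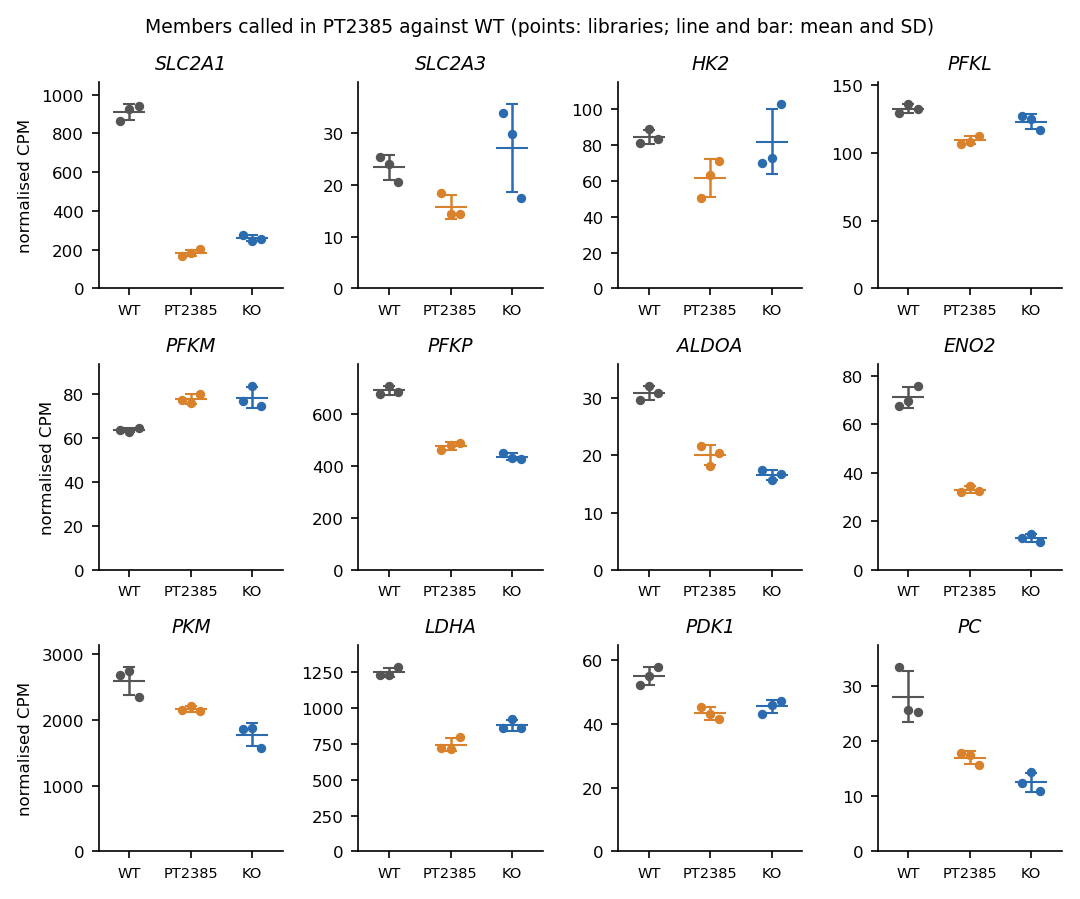
CPM of the 12 members called in PT2385 against WT, with 1 point per library and the mean and SD of each group, each panel starting at 0. SLC2A1 and LDHA have KO between PT2385 and WT, ENO2 and PKM descend from WT through PT2385 to KO, and PFKM is higher in both groups than in WT.

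Pyruvate dehydrogenase kinases switch the mitochondrial complex off, and phosphatases switch it on. PDK1 (ENSG00000152256, chromosome 2, 172555373 to 172608669) read 52.2, 55.1 and 57.8 CPM in WT, 45.2, 43.2 and 41.4 CPM with PT2385, and 43.2, 45.9 and 47.3 CPM in KO. Both groups lay under every WT library (PT2385 -0.35, standard error 0.0732, adjusted p = 0.0121, and KO -0.26, standard error 0.0716, adjusted p = 0.0179). The PT2385 call was lost without WT replicate 2 (0.0653), WT replicate 3 (0.0595) or PT2385 replicate 2 (0.0624), and the KO call without WT replicate 2 (0.0580), WT replicate 3 (0.0758) or KO replicate 1 (0.0783). PDK2 (ENSG00000005882, chromosome 17, 50094737 to 50112152) went the other way in KO, at 7.79, 6.91 and 8.61 CPM in WT, 7.98, 7.62 and 9.99 CPM with PT2385, and 11.2, 13.2 and 8.93 CPM in KO. Its rise (0.53, standard error 0.168, adjusted p = 0.0340) was lost without WT replicate 1 (0.0831), WT replicate 2 (0.138), KO replicate 1 (0.0796) or KO replicate 2 (0.121), and 38.6% of its exon bases overlap genes on the opposite strand. PDK3 and PDK4 were not called in any comparison.

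PDP1 (ENSG00000164951, chromosome 8, 93857807 to 93926068), the catalytic phosphatase, read 75.4, 71.8 and 67.0 CPM in WT, 84.2, 74.6 and 68.7 CPM with PT2385, and 163, 154 and 128 CPM in KO. Every KO library lay far above every other library, and WT and PT2385 overlapped. The log2 fold change was 1.07 in KO (standard error 0.0925, adjusted p = 8.71e-06) and 0.08 with PT2385 (2-standard-error interval -0.09 to 0.25), and KO differed from PT2385 by 0.96 (adjusted p = 1.27e-04).

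The mitochondrial pyruvate carrier is a complex of MPC1 and MPC2. MPC1 (ENSG00000060762, chromosome 6, 166364919 to 166383013) read 3.85, 3.87 and 3.34 CPM in WT, 5.16, 4.18 and 3.98 CPM with PT2385, and 7.56, 8.18 and 4.60 CPM in KO. It was higher in KO than in WT (log2 fold change 0.89, standard error 0.228, adjusted p = 0.0129), a call lost without WT replicate 3 (0.0529), and was called higher in KO than with PT2385 only without KO replicate 3 (0.83, adjusted p = 0.00838), when blocked by replicate (0.59, adjusted p = 0.0374) or with no filter on low counts (0.61, adjusted p = 0.0194). MPC2 and the subunits PDHA1 and PDHB of pyruvate dehydrogenase were not called in any comparison, with log2 fold changes between -0.11 and 0.15.

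Pyruvate carboxylase feeds pyruvate into the TCA cycle as oxaloacetate. PC (ENSG00000173599, chromosome 11, 66848417 to 66958386) read 33.3, 25.5 and 25.2 CPM in WT, 17.7, 17.5 and 15.6 CPM with PT2385, and 12.3, 14.3 and 10.9 CPM in KO. The groups descended without overlap from WT through PT2385 to KO. PC was lower with PT2385 (log2 fold change -0.73, standard error 0.122, adjusted p = 0.00284) and in KO (-1.15, standard error 0.143, adjusted p = 1.33e-04). The further difference of KO from PT2385 (-0.44, adjusted p = 0.0392) was lost without PT2385 replicate 1 (0.110), PT2385 replicate 2 (0.142), KO replicate 1 (0.119) or KO replicate 3 (0.0895). FBP1, the gluconeogenic enzyme that opposes phosphofructokinase and is commonly lost in this tumour type, had 0 counts in all 9 libraries, which allows up to 3 counts per library by counting error alone.

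Other genes of the same steps, from a list of 52 of which 24 were tested in each comparison with WT, gave 1 call with PT2385, where 7.7% of all genes were called. SLC2A2 (GLUT2) had 1, 1 and 3 counts in WT, 20, 15 and 18 with PT2385 (adjusted p = 0.00172), and 4, 18 and 1 in KO, and no fold is given because every WT library lay at or under 3 counts. In KO 4 of the 24 were lower (ADPGK, PDPR, SLC37A4 and PGP) and 6 were higher, where 30.1% of all genes were called. The higher ones were SLC2A9, GCKR (log2 fold change 0.88), SLC16A7 (0.57), PGM2L1 (0.44), BSG (0.42) and DLD (0.38). All but SLC2A9 were named after their values were seen. GCKR lost its call without WT replicate 1 (adjusted p = 0.0568), WT replicate 2 (0.0547) or KO replicate 1 (0.0567). SLC37A4, which carries glucose 6-phosphate, lost its call without WT replicate 1 (adjusted p = 0.0723), WT replicate 2 (0.108) or KO replicate 1 (0.103). SLC2A9, a urate and hexose transporter, was among those higher (log2 fold change 1.01, standard error 0.245, adjusted p = 0.00954), except without WT replicate 2 (0.83, adjusted p = 0.0518). The median log2 fold change of the genes tested was 0.10 with PT2385, with SLC2A2 and without LDHC, and 0.19 in KO, with LDHC and without SLC2A2.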

How the data were processed

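The study sequenced RNA from 786-0 cells in 9 libraries. According to its methods, the authors checked reads with FastQC, trimmed them with cutadapt, aligned them to GRCh38 with STAR and counted them on genes with featureCounts. Versions, annotation release and strandedness are not given in the sources used here, so genes that overlap others may hold some of their reads. The authors deposited raw counts per gene without normalization.

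Groups and replicate numbers came from the sample labels, and 58207 of the 58735 identifiers were matched to a symbol through GENCODE release 44. Each pair of groups was fitted separately across all genes with edgeR 4.0.16 in R 4.3.3 (TMM, filterByExpr with a minimum of 10 counts, quasi-likelihood F test, Benjamini-Hochberg adjustment over all tested genes, adjusted p under 0.05). The code was tested on simulated data. An exact permutation test of 3 against 3 cannot go below p = 0.1, so none was used. Intervals are 2 standard errors on each side. Lengths are the union of annotated exons, and counting errors and floors of 3 counts cover counting error only.

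The members and lists were chosen with earlier results of these data known. Members called with PT2385, and the 12 largest changes among those called in KO, are given in every library. Other pathway genes are named where the log2 fold change was at least 1 in size, and the rest named were chosen after their values were seen. A further list of neighbouring genes is not reported here. Same-numbered WT and PT2385 replicates had correlated deviations from their group means (0.455, 0.137 and 0.432 over 10140 genes with a mean of at least 100 counts). For KO the second pair correlated less (0.0572 with WT and 0.0921 with PT2385). Alternatives were DESeq2 1.42.0, RLE, upper-quartile or library-size scaling, scaling without the members, other filters, a block for replicate number, a joint model of all 9 libraries, an adjusted p under 0.01 and leaving out each replicate. Promoters are from RefSeq. Protein levels, metabolites and behaviour of the cells were not analysed here.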

Additional observations from a re-analysis of the deposited data

How the results depend on the processing

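No called value changed sign under any of the 16 alternatives per comparison. Calls held under all of them for 6 of the 12 members with PT2385 (SLC2A1, PFKP, ALDOA, ENO2, LDHA and PC), 11 of 16 in KO (SLC2A1, PFKM, PFKP, PFKFB2, PFKFB3, ALDOA, ENO2, PKM, LDHA, PDP1 and PC) and 4 of 13 between KO and PT2385. With an adjusted p under 0.01 the numbers called were 516 genes and 6 members with PT2385, 2788 genes in KO, and 1657 genes and 4 members between KO and PT2385. Leaving out each replicate in turn gave 574 to 1451 genes and 6 to 12 members with PT2385, 3344 to 5094 genes and 13 to 22 members in KO, and 1836 to 3190 genes and 4 to 13 members between KO and PT2385. The lowest numbers with PT2385 came without PT2385 replicate 2 (574 genes and 6 members), and leaving out WT replicate 2 gave 581 genes and 6 members, with fewer samples in each fit. With the replicate block 2305 genes and 14 members were called with PT2385, where SLC2A6 and PFKFB3 were added and no other member's call changed. Same-numbered WT and KO replicates had deviations that correlated by 0.322, 0.0572 and 0.483, and KO replicate 2 correlated more with WT replicate 1 (0.296). In KO the block gave 5501 genes and 20 members in place of 4566 and 16. It added PGK1 (adjusted p = 0.0260), SLC2A8 (0.0368), LDHB (0.0436) and GPI (0.0351). Between KO and PT2385 the block gave 3783 genes and 15 members in place of 2897 and 13. Not every sample correlated best with its own number. SLC2A8 (0.0382) and GPI (0.0492) were also called in KO with all 9 libraries in 1 model, and PDK2 was called between KO and PT2385 without KO replicate 3 (0.0466). Scaling, and leaving the members out of it, lost no member's call against WT. Isozyme shares moved with the length used, by more than their SD for most isozymes. SLC2A12, with at most 8 counts in a library, did not pass the low-count filter. Without the filter it was called between KO and PT2385 and not called against WT. FBP1 had 0 counts in all 9 libraries.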

Other observations

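Genes of glycogen and TCA metabolism, which border the pathway, were described from fixed lists. Of 20 glycogen genes tested, 2 were lower with PT2385 (PPP1R3B and GBE1) and 1 was higher (PYGB), with a median log2 fold change of -0.02, where 7.7% of all genes were called. PPP1R3B (ENSG00000173281), which targets protein phosphatase 1 to glycogen and so favours its synthesis, read 22.3, 19.4 and 20.8 CPM in WT, 6.53, 6.80 and 6.98 CPM with PT2385, and 13.7, 13.3 and 12.5 CPM in KO. The 3 groups did not overlap, and PT2385 was lowest. Its log2 fold change was -1.62 with PT2385 (standard error 0.114, adjusted p = 2.07e-06) and -0.65 in KO (0.106, adjusted p = 8.46e-04), and KO lay above PT2385 by 0.96 (adjusted p = 3.98e-04). GBE1, the glycogen branching enzyme, was lower with PT2385 (-0.47, adjusted p = 0.00171) and not called in KO (-0.20, adjusted p = 0.111). PYGB, a glycogen phosphorylase, was higher with PT2385 (0.21, adjusted p = 0.0445), but without any of the 3 WT replicates (adjusted p = 0.111, 0.116 and 0.156), PT2385 replicate 1 (0.0631) or PT2385 replicate 2 (0.177) it was not called. In KO 3 glycogen genes were lower (PPP1R3B, PPP1R3C and PHKB) and 3 higher (GYG1, PYGB and GAA), a share near the 30.1% of all genes called. The call of PPP1R3C was lost with DESeq2 (adjusted p = 0.0615) and without WT replicate 2 (0.0936), WT replicate 3 (0.0947), KO replicate 1 (0.0780) or KO replicate 2 (0.0545), and that of GYG1 without WT replicate 2 (0.0515), WT replicate 3 (0.0518) or KO replicate 1 (0.0565).

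Of 26 genes of the TCA cycle and its linked enzymes, the calls with PT2385 were SDHB and ME2, both higher (edgeR, adjusted p = 0.0433 and 0.0497), and DESeq2 called neither (0.0946 and 0.0807). That count is near the 7.7% of all genes called. In KO 5 of them were lower and 6 higher, with a median log2 fold change of 0.12, where 30.1% of all genes were called. Among the lower ones, SUCLG2 lost its call with DESeq2 (adjusted p = 0.0782) or no filter on low counts (0.0611). It also lost it without any WT replicate or without KO replicate 1 or 2 (0.0583 to 0.102). SDHA, also lower, lost its call without WT replicate 3 (0.0608) or KO replicate 1 (0.0502), and IDH3G, higher, without WT replicate 3 (0.0599). IDH2 (ENSG00000182054), the mitochondrial NADP-dependent isocitrate dehydrogenase, read 77.4, 72.1 and 74.6 CPM in WT, 69.0, 65.2 and 74.7 CPM with PT2385, and 25.8, 33.7 and 31.1 CPM in KO. It fell in KO (-1.29, standard error 0.0946, adjusted p = 2.28e-06) and was not called with PT2385 (-0.10, adjusted p = 0.450). ME3, the mitochondrial malic enzyme, read 2.60, 1.65 and 1.67 CPM in WT and 4.40, 4.23 and 4.19 CPM in KO (1.13, adjusted p = 0.00303).

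Of 9 regulators of the pathway tested, MLXIP, a glucose-sensing transcription factor, was the 1 call with PT2385 (lower, log2 fold change -0.30, adjusted p = 0.00467). Among all genes tested in that comparison, 7.7% were called. In KO EPAS1 was lower, but it is the gene knocked out and so tells nothing of the other regulators. HIF1A, TXNIP and FOXO1 were higher, where 30.1% of all genes were called. The median log2 fold change over the list, with EPAS1 in it, was 0.27. TXNIP, which restrains glucose uptake and is induced by glucose, read 6.03, 11.8 and 11.2 CPM in WT, 8.39, 9.64 and 16.1 CPM with PT2385, and 19.8, 15.3 and 40.5 CPM in KO. It was higher in KO (1.40, adjusted p = 0.00945) and not called with PT2385 (0.24, adjusted p = 0.666). FOXO1, a transcription factor restrained by insulin signalling, was higher in KO by 0.86 (adjusted p = 3.41e-04).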
